A study of Homo sapiens with 2 samples.

Results

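The semaphorins, plexins and neuropilins are a family of guidance signals and their receptors, and their transcripts are described here in 2 libraries labelled as an ovarian carcinoma cell line. The genes were taken by name: semaphorins of classes 3 to 7, plexins A to D and both neuropilins. The expression table held 28 of them among 28038 listed genes. SEMA5A, SEMA7A and PLXNA4, which carry such names too, had no row in the table used here and were not analysed. No listed gene was at 0 counts in both libraries, and whether the genes without a row had no reads was not tested.

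One library came from cells that overexpressed IGF2BP3, a binder of m6A-marked messenger RNA, and the other from control cells given a viral vector without insert. Both are labelled OVCAR-3, an established line of human ovarian carcinoma. Whether a culture was 1 clone or a pool of transduced cells is not given in the sources used here. Poly(A) RNA was sequenced from dUTP-marked cDNA, and 48017861 counts fell on the listed genes in the overexpression library and 43190215 in the control library. There was 1 library per group, so nothing was tested, each difference is between these 2 libraries, and every interval is a 95% interval that covers counting error only.

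Semaphorins are secreted or membrane-bound ligands, best known for steering growing axons and blood vessels. Plexins are their signalling receptors, whose cytoplasmic part acts on small GTPases and so on the cytoskeleton and cell adhesion. Most class 3 semaphorins, which are secreted, reach plexins through a neuropilin co-receptor; neuropilins also bind VEGF. The membrane-bound class 4 semaphorins act mainly on class B plexins, and class 6 semaphorins on class A plexins. In carcinomas both growth-promoting and growth-restraining roles have been described for members of the family.

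IGF2BP3 itself had 6376 counts, 133 CPM (counts scaled by library size), in the overexpression library and 2944 counts, 67.9 CPM, in the control library, a ratio of 1.96 (1.88 to 2.05). The labelled cell type was checked against 16 markers of epithelial cells and ovarian serous carcinoma. Of these, 11 were listed and only KRT18 reached 1 FPKM (the authors' deposited fragments per kilobase, scaled for depth). KRT18 stood at 33.1 FPKM in the overexpression library and 33.6 FPKM in the control library. CDH1, which joins epithelial cells, was at 2 counts in both. PAX8 had 32 counts in the overexpression library and 28 in the control library, WFDC2 0 against 4 and ESR1 13 against 4. KRT7, WT1, MUC16, MSLN and SOX17 had no row. Of 7 mesenchymal markers, all listed, 3 reached 1 FPKM. The filament VIM stood at 414 FPKM in the overexpression library and 422 FPKM in the control library. ZEB1 had 6.79 against 6.62 FPKM and CDH2 1.45 against 1.53 FPKM. ZEB2, FN1 and TWIST1 lay below 1 FPKM in both libraries, and SNAI2 had 6 counts against 4. No endothelial marker passed 50 counts over both libraries, and of the leukocyte markers LCP1 did, at 0.595 FPKM in the overexpression library and 0.529 FPKM in the control library. Of 6 neural markers 4 were listed, with a summed level of 6.04 FPKM in the overexpression library and 3.96 FPKM in the control library. MAP2 alone was higher in the overexpression library, with 2798 counts against 1217. SYP had 280 counts against 345, TUBB3 93 against 128 and RBFOX3 10 against 18, all lower, and the median log2 ratio of the 3 past the count minimum was -0.39. Their part in the results below was not tested. KRT18 apart, the markers of epithelial cells and ovarian serous carcinoma thus did not bear out the label, and the libraries are called by their labels here. In RNA from a whole culture, fewer cells that express a gene and less of its RNA per cell cannot be told apart.

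Among the 22 genes that summed to 50 counts or more over both libraries, SEMA3E was the furthest above the control library and NRP2 the furthest below it, followed by SEMA3F, on the log2 scale of CPM plus 1. The stretches before their starts in RefSeq are shown for that reason, on GRCh38.p14, 5′ to 3′ on the strand of the gene. Capitals mark each match of GGGCGG, of the palindrome CACGTG or of the TATA box letters TATAAA, on either strand, with overlapping matches counted separately.
SEMA3E start 1, chr7:83641432-83641681, minus strand: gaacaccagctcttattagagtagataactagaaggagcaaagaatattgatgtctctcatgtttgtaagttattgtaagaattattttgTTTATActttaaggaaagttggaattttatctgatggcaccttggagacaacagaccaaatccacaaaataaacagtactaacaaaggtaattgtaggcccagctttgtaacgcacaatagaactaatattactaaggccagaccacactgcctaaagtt
SEMA3E start 2, chr7:83649140-83649389, minus strand: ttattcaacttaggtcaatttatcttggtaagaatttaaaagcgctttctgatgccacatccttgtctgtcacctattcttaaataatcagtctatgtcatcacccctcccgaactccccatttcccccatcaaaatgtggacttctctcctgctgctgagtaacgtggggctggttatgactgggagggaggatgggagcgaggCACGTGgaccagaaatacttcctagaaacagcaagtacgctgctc
SEMA3F, chr3:50154808-50155044, plus strand: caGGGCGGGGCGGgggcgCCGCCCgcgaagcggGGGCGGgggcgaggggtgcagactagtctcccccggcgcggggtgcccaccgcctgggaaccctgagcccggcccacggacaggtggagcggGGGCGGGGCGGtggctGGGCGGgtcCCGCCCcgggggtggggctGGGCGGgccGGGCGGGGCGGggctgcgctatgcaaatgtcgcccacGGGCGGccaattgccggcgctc
NRP2, chr2:205682251-205682499, plus strand: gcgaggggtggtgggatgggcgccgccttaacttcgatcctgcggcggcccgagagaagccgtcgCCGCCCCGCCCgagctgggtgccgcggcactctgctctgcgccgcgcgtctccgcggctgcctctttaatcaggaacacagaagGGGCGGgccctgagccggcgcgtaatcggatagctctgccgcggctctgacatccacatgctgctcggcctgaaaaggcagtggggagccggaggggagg
The windows are 250 bases long, cut to 237 bases for SEMA3F and 249 bases for NRP2 where an annotated exon of the same gene begins. Both SEMA3E windows were poor in CpG, with 1 and 6 CpG pairs and a GC content of 34.8% and 46.4%, and neither held GGGCGG. The SEMA3F window held 31 CpG pairs and 12 matches of GGGCGG, and the NRP2 window 29 CpG pairs and 3 matches. Over 35116 RefSeq windows of 250 bases, the median was 11 CpG pairs, and GGGCGG was found in 42.6%, TATAAA in 10.7% and CACGTG in 6.34%. The NRP2 window and that of SEMA3E start 1 lie inside the genes as GENCODE release 29 places them, downstream of its outermost starts. SEMA3F has further annotated starts, not shown. SEMA3C has 2 annotated starts, one with 39 CpG pairs in its window and one with 2. All 250 bases of the window with 39 CpG pairs lie in annotated exons of SEMA3C, unlike the windows shown. The files do not show which start was used, and a match of letters is not a bound site.

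The ligands were dominated by a single transcript. SEMA3C, a secreted semaphorin with roles in heart outflow tract and vessel development known from mice, stood at 99.1 FPKM in the overexpression library and 88.0 FPKM in the control library. It made up 80.0% of the summed semaphorin FPKM in the overexpression library and 78.6% in the control library. Of the class 3 sum it made up 96.7% in the overexpression library and 97.1% in the control library. Among the 14157 genes that summed to 50 counts or more, its rank was 302 in the overexpression library and 377 in the control library. No other gene of the family came within 5-fold of it: PLXNB2, the next, lay 7.03-fold lower in the overexpression library and 5.63-fold lower in the control library.

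The remaining class 3 ligands were low. SEMA3E, which can signal through PLXND1 without a neuropilin, stood at 1.98 FPKM in the overexpression library and 0.915 FPKM in the control library. SEMA3F, a ligand of NRP2, had 0.729 FPKM against 1.06 FPKM. These are the family members whose place relative to 1 FPKM differed between the libraries, SEMA3E reaching it in the overexpression library and SEMA3F in the control library. In the control library both intervals included 1 FPKM, 0.820 to 1.02 for SEMA3E and 0.925 to 1.21 for SEMA3F. SEMA3G (0.314 against 0.206 FPKM) and SEMA3B (0.253 against 0.309 FPKM) were lower still. SEMA3A, the classical growth cone collapsing factor, had 24 counts in the overexpression library and 34 in the control library, and SEMA3D 20 against 8.

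Class 4 gave 4 ligands above 1 FPKM. SEMA4C had 6.22 FPKM in the overexpression library and 6.78 FPKM in the control library, SEMA4F 4.51 against 4.38 FPKM and SEMA4B 3.28 against 3.07 FPKM. SEMA4D, which binds PLXNB1 and was first known as a lymphocyte protein, had 1.76 against 1.48 FPKM. SEMA4G was at 0.833 against 0.656 FPKM, and SEMA4A at 0 against 2 counts. Of class 6, SEMA6B led with 3.74 FPKM in the overexpression library and 3.83 FPKM in the control library, SEMA6C had 0.876 against 0.978 FPKM and SEMA6A 0.128 against 0.142 FPKM. SEMA6D had 2 counts against 0, and SEMA5B of class 5 had 4 against 0. A count of 0 in the control library allows up to 3 counts, or 0.0692 CPM, so neither gene can be called different.

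On the receptor side PLXNB2, a receptor of class 4 semaphorins, was the highest, at 14.1 FPKM in the overexpression library and 15.6 FPKM in the control library. It held 48.9% of the summed FPKM of plexins and neuropilins in the overexpression library and 50.6% in the control library. PLXNA1, a class A plexin that serves class 3 and class 6 ligands, had 7.03 against 6.92 FPKM. PLXND1, the vascular plexin, had 3.27 against 3.47 FPKM, PLXNB1 2.21 against 2.38 FPKM and PLXNA3 1.26 against 1.44 FPKM. Each of these 5 plexins was above 1 FPKM in both libraries. PLXNC1 stood at 0.262 against 0.252 FPKM, PLXNB3, which shares 20.4% of its exon bases with SRPK3, had 4 counts against 3, and PLXNA2 4 against 0.

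Both neuropilins were below 1 FPKM. NRP1 had 0.542 FPKM in the overexpression library and 0.480 FPKM in the control library, and NRP2 0.165 against 0.285 FPKM. Together they made up 2.45% of the summed receptor FPKM in the overexpression library and 2.48% in the control library. SEMA3C, PLXNB2, PLXNA1, SEMA4C, SEMA4F and SEMA6B held the first 6 places in both libraries. In the overexpression library SEMA4B and PLXND1 had overlapping intervals, as had PLXNB1 with SEMA3E and SEMA3E with SEMA4D. In the control library PLXNA1 and SEMA4C, SEMA6B and PLXND1, SEMA4D and PLXNA3, and SEMA3F and SEMA6C were not separated by their intervals.

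**Figure D1:**
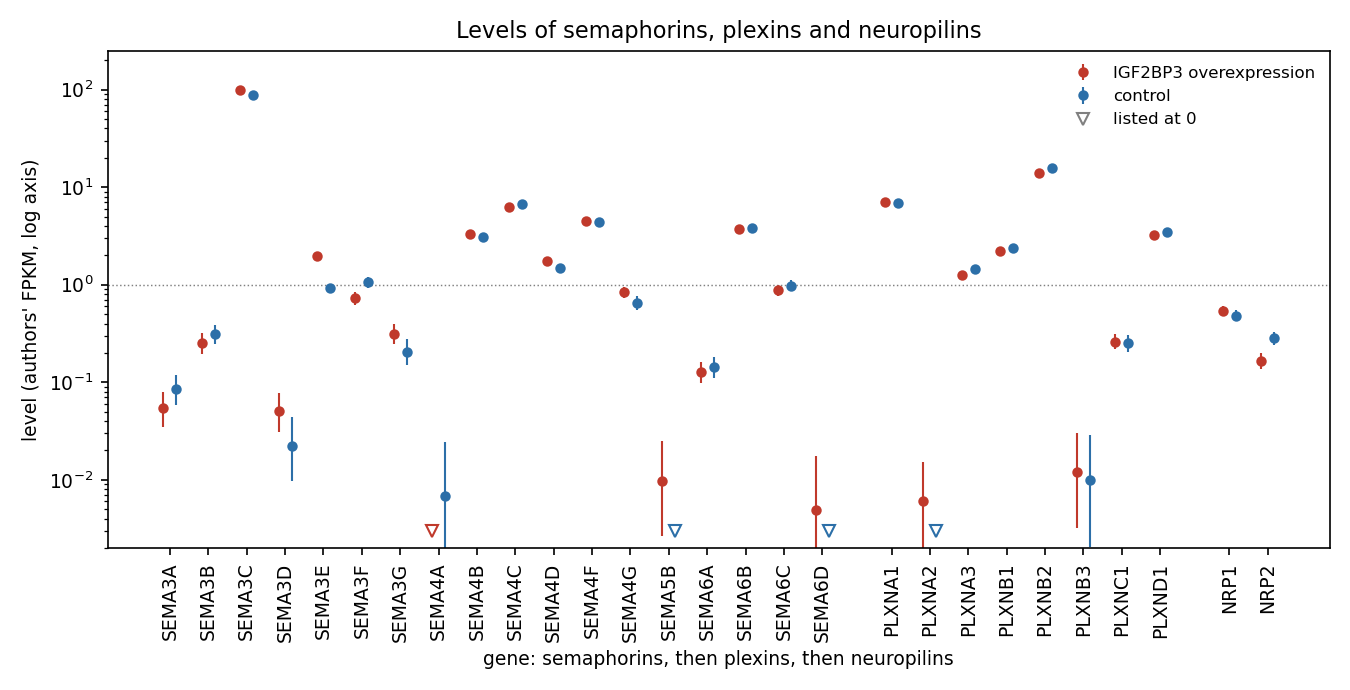
Level of each of the 28 genes in FPKM on a log axis, the overexpression library left of the control library; bars are 95% Poisson counting intervals, open triangles mark a library listed at 0 and the dotted line 1 FPKM. SEMA3C lies at 99.1 and 88.0 FPKM, far above every other gene, and both neuropilins lie below 1 FPKM.

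The gene length that the FPKM values imply is close to that of all annotated exons joined, which gives lower values than a single transcript's length. Recomputed with the length of the longest coding transcript in GENCODE release 29, a choice made after seeing the data, levels were 1.03 to 2.49 times as high. SEMA4D moved most, to 4.39 in the overexpression library and 3.69 in the control library, and SEMA4C reached 11.0 against 12.0. On this scale NRP1 stood at 1.06 in the overexpression library and 0.941 in the control library, and NRP2 at 0.344 against 0.594. SEMA3C, at 117 against 104, was still the highest and PLXNB2, at 16.1 against 17.8, the next.

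Ligands were then set beside their receptors by level. Of 37 ligand-receptor pairs taken from textbook knowledge, both partners were listed for 29. In 6 pairs both partners reached 1 FPKM in at least 1 library, and in each library 5 did. None of these was a pair of a ligand with a neuropilin, a statement that depends on the scale. SEMA3C with NRP1 qualified in both libraries at 1 TPM, where NRP1 had 1.90 TPM in the overexpression library and 1.62 TPM in the control library. At 0.5 FPKM, and with the transcript length above, it qualified in the overexpression library. SEMA3B with NRP1 also qualified at 1 TPM, in the control library, where SEMA3B had 1.04 TPM. SEMA4C and PLXNB2 were the one pair with both partners above 6 FPKM, with 0.441 times as much ligand as receptor in the overexpression library and 0.433 times in the control library. SEMA4D and PLXNB1 had a ratio of 0.796 in the overexpression library and 0.622 in the control library. SEMA4D and PLXNB2 had 0.125 against 0.0947.

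The partners chosen for SEMA3C were NRP1, NRP2, PLXNA2 and PLXND1, and among these only PLXND1 was itself well above 1 FPKM. Other plexins were not set beside SEMA3C. SEMA3C stood 30.3-fold above PLXND1 in the overexpression library and 25.4-fold above it in the control library. Against NRP1, SEMA3C was 183-fold higher in both. Against NRP2 the excess was 601-fold in the overexpression library, compared with 309-fold in the control library. The second ligand of PLXND1, SEMA3E, had 0.607 times the level of the receptor in the overexpression library and 0.264 times in the control library.

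SEMA3F had 0.578 times the level of PLXNA3 in the overexpression library and 0.735 times in the control library, and exceeded its co-receptor NRP2 4.42-fold in the overexpression library and 3.72-fold in the control library. SEMA6B is a ligand of PLXNA2 and PLXNA4, and PLXNA2 had 4 counts in the overexpression library and 0 in the control library. PLXNA1, the second highest receptor, had no ligand among its listed pairs above 1 FPKM in either library. SEMA6C came closest, and its interval in the control library, 0.859 to 1.11 FPKM, included 1. At 1 TPM, at 0.5 FPKM and with the transcript length above, SEMA6C with PLXNA1 qualified in both libraries. SEMA4B and SEMA4F were expressed but had no receptor among the pairs chosen. These are transcript levels of a whole culture and give neither protein nor surface amounts.

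**Figure D2:**
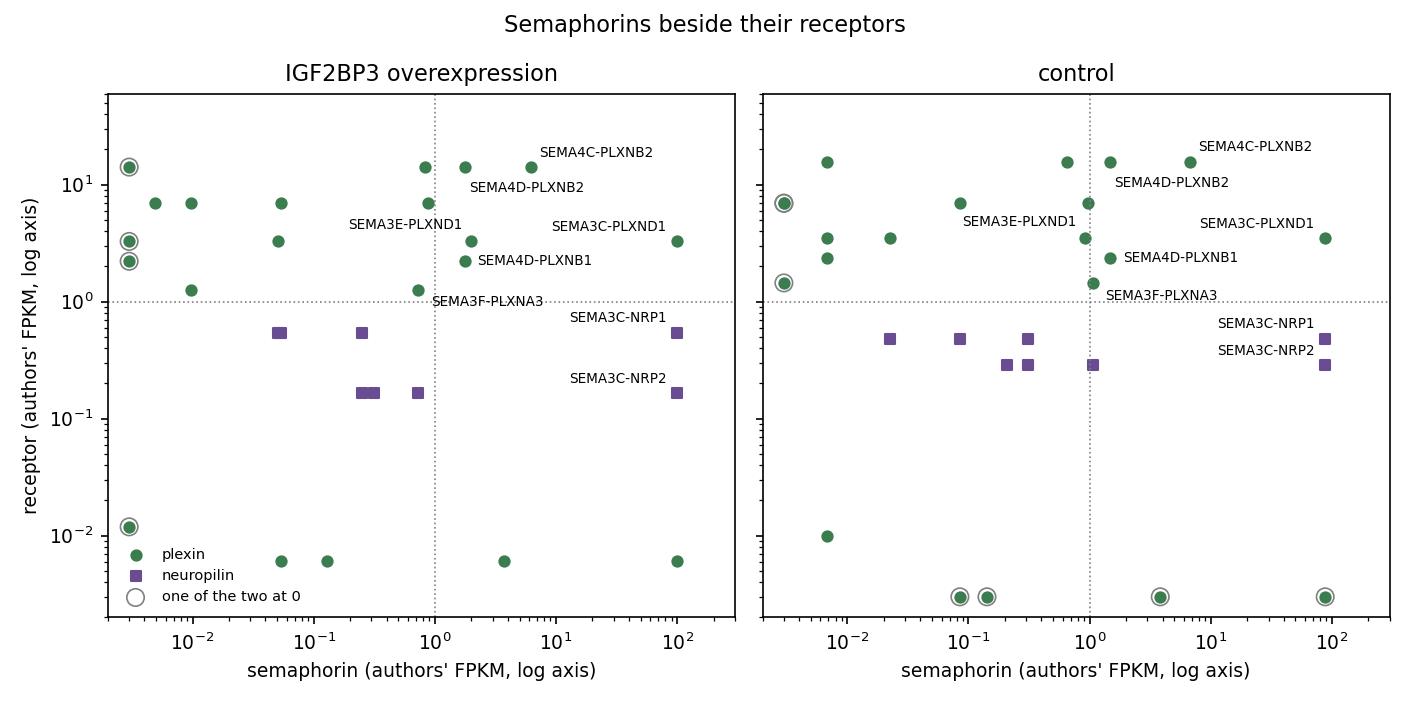
Each point is a ligand-receptor pair, with the FPKM of the semaphorin across and that of its plexin or neuropilin upward, both on log axes; the overexpression library is on the left and the control library on the right, and partners at 0 are drawn at 0.003. Named are the 6 pairs with both partners at 1 FPKM or more in at least 1 library, and SEMA3C with the neuropilins; no square, which marks a neuropilin, lies above the line at 1 FPKM.

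Differences were measured, for the 22 genes that reached the minimum of 50 counts, as log2 ratios of TMM-scaled CPM to which 1 was added. On this scale 2 of the 22 lay 25% or more above the control library, as did 4.64% of all 14157 genes. Another 2 lay 20% or more below it, as did 3.51% of all genes. In either direction that is 4 of 22, where 8.15% of all genes were. The median over the 22 was -0.05, against 0.0042 over all genes, with 10 above 0, where 51.1% of all genes were, and 12 below. SEMA3E and SEMA3G were the higher pair, SEMA3F and NRP2 the lower pair, and the other 18 lay between these limits. The 4 are 3 secreted class 3 ligands and a co-receptor, where the 22 genes held 6 class 3 ligands and 2 neuropilins. At a threshold of 1.5-fold only SEMA3E was left.

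SEMA3E (ENSG00000170381) lies on chromosome 7, 83363238 to 83649113, minus strand, on GRCh38. It had 804 counts in the overexpression library and 334 counts in the control library, equal to 16.8 CPM against 7.71 CPM. The overexpression library was thus the high one, with a ratio of 2.18 (1.92 to 2.48) and a log2 ratio of 1.03 on the scale of CPM plus 1. Its rank from the top was 52 among all 14157 genes, of which 0.678% were at least 2-fold different in either direction. In the authors' deposited table its log2 fold change is 1.11. SEMA3E is known to restrain vessel growth through PLXND1, and a form cut by furin-type proteases has been linked to metastasis.

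NRP2 (ENSG00000118257) lies on chromosome 2, 205681990 to 205798133, plus strand. It had 110 counts, 2.30 CPM, in the overexpression library and 171 counts, 3.95 CPM, in the control library. It was lower in the overexpression library, at a ratio of 0.582 (0.454 to 0.744) and a log2 ratio of -0.58, rank 92 from the bottom. NRP2 is the co-receptor of SEMA3F and also binds VEGFC. EEF1B2, within 1 Mb of it, was more different still, with 3534 counts against 11337 counts, a log2 ratio of -1.81. The part of this neighbour in the NRP2 value was not tested.

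SEMA3F (ENSG00000001617) lies on chromosome 3, 50155045 to 50189075, plus strand. It had 169 counts, 3.53 CPM, in the overexpression library and 221 counts, 5.10 CPM, in the control library. The ratio was 0.692 (0.563 to 0.850), with a log2 ratio of -0.43. Its antisense transcript SEMA3F-AS1, which overlaps 2.28% of its exon bases, had 46 counts against 71, a ratio of 0.587 (0.396 to 0.862). The libraries were made with dUTP, which can mark strand, but whether counting used it is not given in the sources used here, so reads on the shared bases cannot be assigned. SEMA3F is a repulsive ligand of NRP2 with PLXNA3.

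SEMA3G (ENSG00000010319) lies on chromosome 3, 52433053 to 52445085, minus strand. It had 76 counts, 1.59 CPM, in the overexpression library and 45 counts, 1.04 CPM, in the control library. It too is a ligand of NRP2. Its ratio of 1.53 had an interval of 1.04 to 2.26. Even numbers were in surplus among the counts 1 to 20, at 63.3% in the overexpression library and 64.1% in the control library. Counting each mate of a pair separately would give such a surplus, which was not tested, and intervals were therefore also computed from halved counts. For SEMA3G that interval, 0.885 to 2.70, included 1. Those of SEMA3E (1.81 to 2.63), SEMA3F (0.515 to 0.927) and NRP2 (0.407 to 0.827) did not. That of the antisense transcript SEMA3F-AS1, 0.331 to 1.02, included 1 as well.

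Counting intervals on one side of 1 were found for 5 of the 22 genes above it and for 5 below it. These shares are close to those over all genes, 22.8% above and 18.6% below, and so say nothing particular about the family. With halved counts 3 were above, where 15.9% of all genes were, and 3 below, where 10.9% were.

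**Figure D3:**
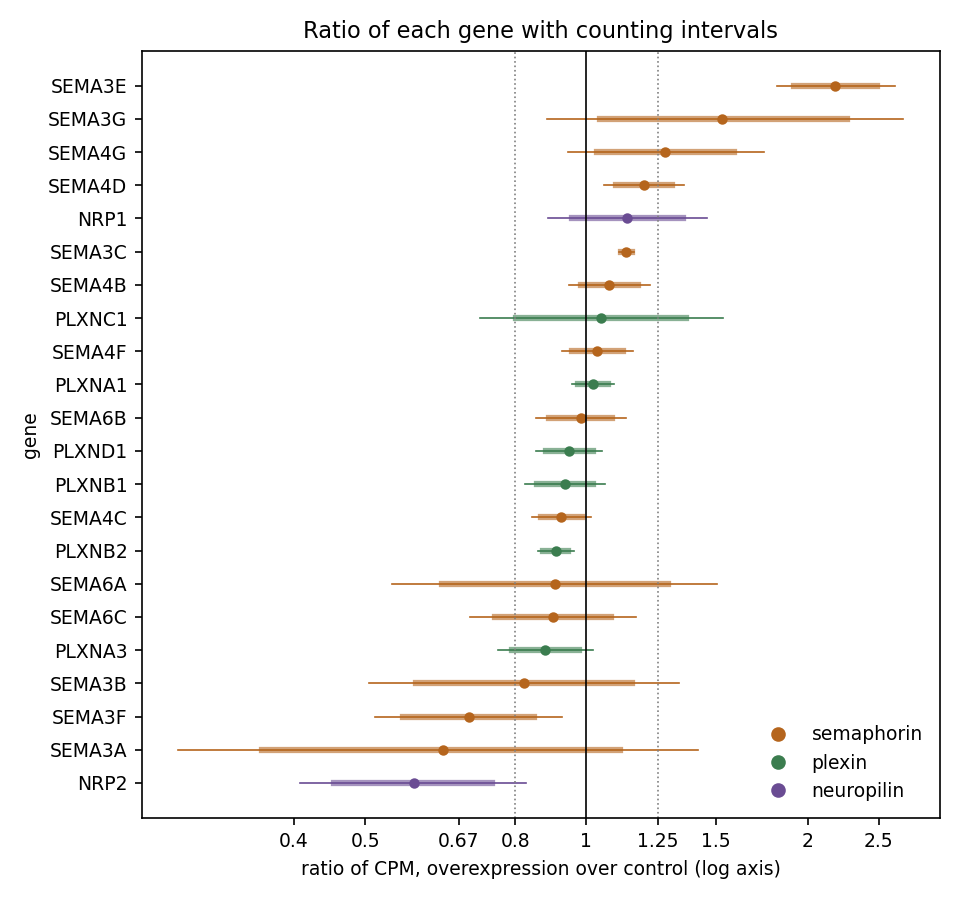
Ratio of CPM, overexpression over control, for the 22 genes with at least 50 counts, on a log axis; thick bars are 95% counting intervals from the deposited counts and thin bars those from halved counts, and dotted lines mark ratios 25% above and 20% below 1, here without the added 1 CPM, so SEMA4G and SEMA3A lie past them though not past the limits on the log2 scale of CPM plus 1. SEMA3E, at 2.18, stands clear of the others, and NRP2, at 0.582, lies at the other end.

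The remaining ligands differed little. SEMA3C had 29026 counts, 606 CPM, in the overexpression library and 23182 counts, 535 CPM, in the control library. It was higher in the overexpression library, at a ratio of 1.13 (1.11 to 1.15), an interval that its many counts make narrow. SEMA4D was 1.20-fold higher (1.10 to 1.31), with 1197 counts against 905. SEMA4G, with 212 counts against 150, stood at 1.28 (1.03 to 1.59), or 0.943 to 1.74 from halved counts. MRPL43 and another gene on the opposite strand cover 27.4% of its exon bases, and MRPL43 itself was at 0.887. SEMA4C was at 0.925 (0.866 to 0.987), or 0.843 to 1.01 from halved counts, with 1872 counts against 1833. The intervals of SEMA4B, SEMA4F, SEMA6A, SEMA6B, SEMA6C, SEMA3A and SEMA3B all included 1. Of these SEMA3A, from 24 and 34 counts, had the widest, 0.363 to 1.11 about a ratio of 0.639, so a difference of the size seen for NRP2 was not detectable at its depth.

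No plexin passed either limit. PLXNB2 was at 0.908 (0.873 to 0.945), with 4924 counts in the overexpression library and 4909 counts in the smaller control library. PLXNA3 was at 0.879 (0.792 to 0.976), with 709 counts against 730, and its interval from halved counts, 0.758 to 1.02, included 1. The ratios of PLXND1 (0.948), PLXNB1 (0.936), PLXNA1 (1.02) and PLXNC1 (1.05) had intervals that included 1. NRP1 had 300 counts against 239, a ratio of 1.14 (0.956 to 1.35), so the neuropilins lay on opposite sides of 1 and their intervals did not overlap. The 8 receptors past the count minimum had a median log2 ratio of -0.08 and the 14 ligands one of 0.01.

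**Figure D4:**
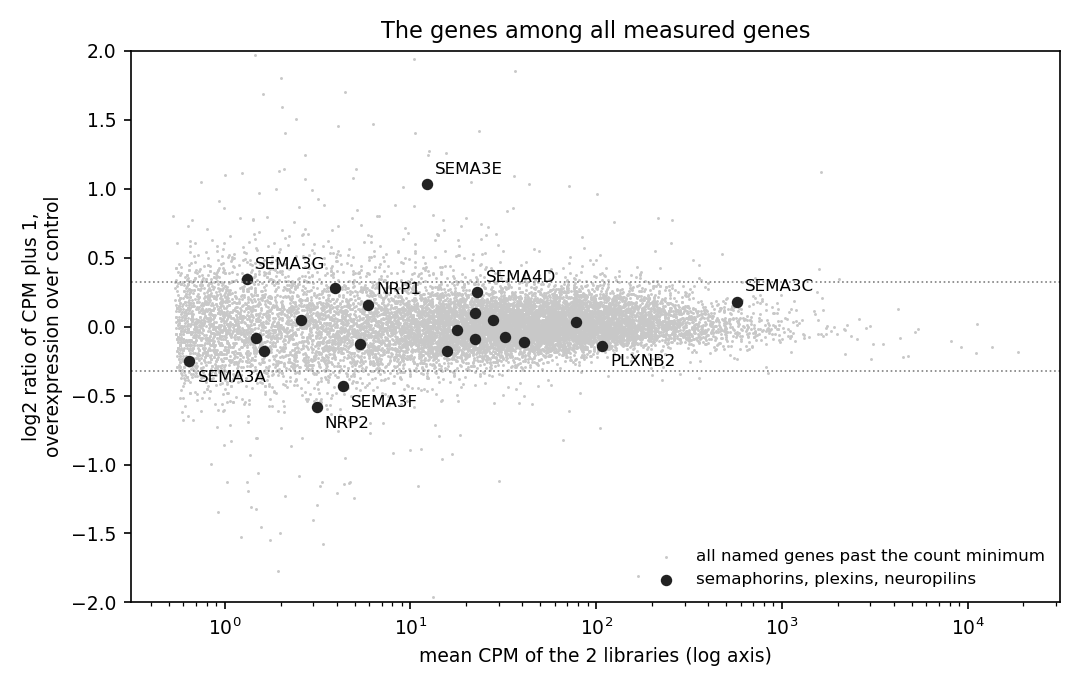
Log2 ratio between the libraries on the scale of CPM plus 1 against mean CPM on a log axis. Grey points are genes with a symbol and 50 counts or more, and black points the 22 family members among them. Beyond the plotted range lie 34 grey genes, and dotted lines mark the same limits. SEMA3E, SEMA3G, SEMA3F and NRP2 lie outside the dotted lines and SEMA3C, the most abundant, inside them.

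SEMA3C, SEMA3E, SEMA3A and SEMA3D lie in one stretch of chromosome 7. Along the chromosome, the starts of SEMA3C, SEMA3A and SEMA3D lie at -2.73, 0.844 and 1.54 Mb from that of SEMA3E. Their levels ran from 0.0504 FPKM for SEMA3D to 99.1 FPKM for SEMA3C in the overexpression library, and from 0.0224 to 88.0 FPKM in the control library. Within 1 Mb of SEMA3E, 3 other genes passed the count minimum and none was 2-fold different. PCLO, a presynaptic scaffold gene at -0.486 Mb, had 211 counts against 139, a ratio of 1.37 (1.10 to 1.71). CACNA2D1, a calcium channel subunit gene at -1.21 Mb, was at 1.14 (1.07 to 1.21). SEMA3D had a ratio of 2.26 from 20 counts in the overexpression library and 8 in the control library, with an interval of 0.955 to 5.94.

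**Figure D5:**
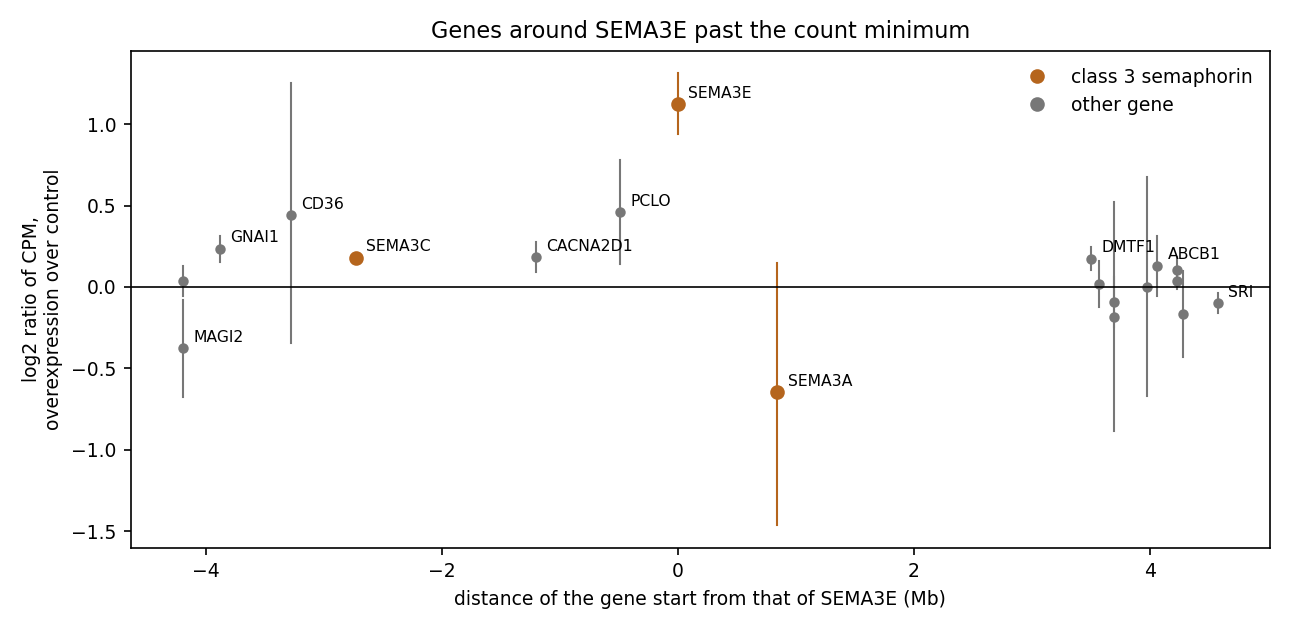
Log2 ratio of CPM, overexpression over control, of genes with at least 50 counts within 5 Mb of SEMA3E, by the distance of their start from that of SEMA3E; bars are 95% counting intervals and class 3 semaphorins are in brown. SEMA3E is the highest point, SEMA3C and CACNA2D1 lie slightly above 0, and the interval of SEMA3A spans 0.

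IGF2BP proteins bind m6A-marked RNA at sequences that contain UGGAC, so the letters TGGAC were counted in the longest coding transcript of each gene. The 22 genes had a median of 1.72 matches per kilobase, against 1.12 over 11596 genes past the count minimum with such a transcript. PLXNB2 had the most, 3.13 per kilobase, and SEMA3C the fewest, 0.580 per kilobase. SEMA3E had 7 matches in 7247 bases, or 0.966 per kilobase, and NRP2 12 matches in 6662 bases, or 1.80. Of the 4 genes past the limits, SEMA3E alone lay below the general median; SEMA3F had 1.32 and SEMA3G 1.63 per kilobase. No binding was measured.

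Other genes of the pathway were taken from 4 lists, and their counts are to be read against the 8.15% of all genes that lay past either limit. Of 19 co-receptors and other receptors chosen, 10 were past the count minimum, with a median log2 ratio of 0.02; 1 lay past the upper limit and 1 past the lower. NRCAM, an adhesion molecule that associates with neuropilins, had 84 counts in the overexpression library and 42 in the control library, a log2 ratio of 0.48. L1CAM, which pairs with NRP1 in neurons, had 102 counts against 152, a log2 ratio of -0.53. The integrin ITGB1, at 118 FPKM against 109 FPKM, was the most abundant of them, before the receptor tyrosine kinase ERBB2, a partner of class B plexins, at 8.06 against 8.04 FPKM. SDC3, a heparan sulfate proteoglycan, was at 6.18 against 6.26 FPKM, and ITGA1 had 75 counts against 93, a log2 ratio of -0.29.

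The VEGF ligands that compete for neuropilins had 4 of 5 members past the minimum and a median of -0.08, with 1 past the lower limit. That was VEGFB, at 11.0 FPKM in the overexpression library and 14.0 FPKM in the control library, a ratio of 0.790 (0.726 to 0.859). VEGFA had 3.98 against 4.36 FPKM, VEGFC, a ligand of NRP2, 1.71 against 1.77 FPKM and PGF 1.59 against 1.55 FPKM.

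Of 43 cytoplasmic effectors of plexins, 39 passed the minimum, none lay past the upper limit and 1 past the lower, with a median of -0.03. DPYSL5, a collapsin response mediator, was the lower one, with 413 counts against 486 and a log2 ratio of -0.34. The kinases ROCK1 and ROCK2, which act below RhoA, stood at 0.30 and 0.29 on the log2 scale. CDC42, from 91 and 107 counts, was at -0.26, and the interval of its ratio, 0.576 to 1.03, included 1. Its level was low, 0.0777 FPKM in the overexpression library and 0.102 FPKM in the control library. Whether its reads were fully counted was not tested. The most abundant effectors were the actin-severing CFL1 (147 against 157 FPKM), RHOA (124 against 131 FPKM) and PAK2 (62.3 against 55.2 FPKM). Of 8 proteases that process semaphorins or neuropilins, 7 passed, none past either limit, with a median of 0.07. ADAM17, which sheds surface proteins, was at 0.32 and ADAM10, with 10.4 against 8.59 FPKM, at 0.28 on the log2 scale, MMP14 at 0.16 and PCSK7 at -0.08. FURIN, which cuts class 3 semaphorins, had 12.0 FPKM in the overexpression library and 11.8 FPKM in the control library, and ADAMTS1 9.49 against 9.47 FPKM.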

How the data were processed

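For 1 overexpression and 1 control library the authors provided a table that holds, per the file headers, gene counts, FPKM and a log2 fold change. Per the submitters' processing notes, reads were placed on GRCh38. Aligner, counter and strand setting: not given in the sources used here. Libraries were scaled by TMM (edgeR 4.0.16, R 4.3.3). Ratios of CPM, overexpression over control, carry 95% exact (Clopper-Pearson) intervals from the split of a gene's counts, and levels exact Poisson intervals; PCR reads without molecular identifiers are not independent molecules, so these cover counting error only. Log2 ratios use a pseudocount of 1 CPM and a count minimum of 50 over both libraries, and 3 counts are the floor. Ratios, intervals and the rule of 25% higher or 20% lower were tested on simulated data. The simulated counts were independent Poisson draws, without paired mates or PCR copies. They checked the computation and not the spread of these data. Positions, overlaps and transcripts came from GENCODE release 29 (GRCh38), which held 26424 of the listed IDs. The genes of the family and all lists were chosen with earlier results of these data known. All listed family members are named, and of each partner list the 4 furthest from 0 and the 3 most abundant. Transcripts of the family shared at most 6.43% of their 31-base words with another gene, except PLXNB3 at 19.2%. Alternatives were scaling by library totals or DESeq2 1.42.0 size factors, other pseudocounts, count minimums, folds, FPKM plus 1, TPM and halved counts. Python 3.11.15, numpy 2.4.6, pandas 2.3.3, scipy 1.17.1 and matplotlib 3.10.9 were used.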

Additional observations from a re-analysis of the deposited data

How the results depend on the processing

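No paired analysis was possible because each group has 1 library. The 4 family members 25% or more higher or 20% or more lower remained 4 in number with library totals or DESeq2 size factors. Only 1, SEMA3E, was left with a pseudocount of 5 CPM, with FPKM plus 1, and with a threshold of 1.5-fold or 2-fold; a larger constant shrinks low genes by construction. There were 6 with a pseudocount of 0.1 CPM and with no constant, a choice made after seeing the data. Halved counts left 6 of 10 counting intervals on one side of 1. Ligand-receptor pairs with both partners at 1 FPKM numbered 6, against 10 at 1 TPM (TPM are larger than FPKM here by construction), 9 at 0.5 FPKM, 2 at 2 FPKM and 9 with transcript lengths, chosen after seeing the data. SEMA3C with NRP1 was among those at 1 TPM, at 0.5 FPKM and with transcript lengths. The family median of -0.05 was 0.0032 with a count minimum of 200 and 0.024 with none. Over 172 recomputed ratios of single members, none changed sign. Another count minimum or pseudocount cannot change a sign, so only library totals, DESeq2 size factors and FPKM plus 1 could. The log2 ratio of SEMA3E was 0.78 with 5 CPM and 0.64 with FPKM plus 1, and that of NRP2 -0.14 with FPKM plus 1. Depth limits SEMA3A, SEMA3D, SEMA4A, SEMA5B, SEMA6D, PLXNA2 and PLXNB3.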

Other observations

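Ephrins and Eph receptors, another guidance family, had 14 of 22 chosen genes past the count minimum, with a median log2 ratio of -0.06; 1 was 25% or more higher and none 20% or more lower, where 8.15% of all genes were past either limit. The higher one was EPHA5, with 1055 counts in the overexpression library and 604 in the control library, a ratio of 1.58 (1.43 to 1.75). EFNA2 had 61 counts against 36, EPHA10 95 against 115 and EPHB2 526 against 543. EPHA2, at 26.7 FPKM in the overexpression library and 30.2 FPKM in the control library, was the most abundant, with a ratio of 0.891 (0.858 to 0.925). EFNA4 had 10.8 against 10.3 FPKM and EFNA5 7.13 against 6.69 FPKM.

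Of slits, netrins and their receptors, 10 of 20 chosen genes passed the minimum, none passed either limit and the median was -0.03. SLIT2, a secreted repellent, had 16.8 FPKM in the overexpression library and 17.1 FPKM in the control library. Its receptor ROBO1 had 9.73 against 8.70 FPKM, a ratio of 1.13 (1.08 to 1.17), and the netrin and RGM receptor NEO1 9.32 against 9.34 FPKM. RGMA was at -0.22, NTN1 at -0.09 and NTNG2 at -0.05 on the log2 scale.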
